A study of Mus musculus with 2 samples.

Results

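Retained-intron transcripts are annotated RNAs of a gene that keep sequence which the gene's other transcripts remove as an intron. The members described here are the entries that GENCODE M21 labels retained_intron and that reached 5 TPM (a length-corrected level, scaled so that all entries of a table have the same sum) or more in both adrenal libraries, in the transcript tables that hold estimated counts. This rule found 997 members of 21848 retained_intron entries (4.56%), in 837 genes. A further 489 entries reached 5 TPM in only 1 of the libraries and were left out. Because TPM chose the members, their TPM levels are given as a description and no test was made on them.

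The study profiled total RNA from adrenal glands of female B6CASTF1/J mice, an F1 hybrid strain, at 36 days of age. It has 1 group of 2 libraries, biological replicates 1 and 2, each from 300 ng of RNA with ribosomal RNA reduced and ERCC spike-in RNAs added. There is no second condition, treatment or genotype, so every comparison below is between the 2 libraries or between the tables. The labels number the animals differently in one field and alike in another and give both the same donor, so the spread between the libraries may be less than that between animals.

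Splicing joins exons and removes introns, and an intron that stays in a polyadenylated or nuclear RNA is called retained. Such RNAs are often held in the nucleus or degraded, and most cannot give the full protein because the intron interrupts the reading frame. Genes for splicing factors are known for retained introns that are linked to control of their own levels. A total RNA library also holds RNA whose splicing is unfinished, and reads cannot tell a stable retained-intron RNA from a precursor.

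The annotation's label covers several structures, and the sequences shown here were chosen because the results turn on them. They come from the GENCODE M21 transcript sequences on mm10, 5′ to 3′ on the strand of the gene. Capitals mark the first 2 bases of the intron, GT, and its last 2 bases, AG, which are the splice sites that these transcripts leave unused. Up to 10 bases of coding exon stand on each side where the annotation has coding sequence there. The first pair are whole introns of members that held most of the gene's RNA in both kinds of transcript table.
Mrps26-201: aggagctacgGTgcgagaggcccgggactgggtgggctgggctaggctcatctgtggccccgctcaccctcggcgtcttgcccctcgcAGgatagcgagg
BC003965-202: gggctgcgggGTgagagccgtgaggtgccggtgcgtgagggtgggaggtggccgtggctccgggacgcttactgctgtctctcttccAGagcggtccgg
The Mrps26 intron lies at chr2:130564228-130564307 (80 bases, 72.5% G or C) and the BC003965 intron at chr17:25184641-25184719 (79 bases, 67.1%), both on the plus strand. The next set are whole introns of members that held most of the gene's RNA in the tables with estimated counts and almost none in the other tables.
Cox6a1-202: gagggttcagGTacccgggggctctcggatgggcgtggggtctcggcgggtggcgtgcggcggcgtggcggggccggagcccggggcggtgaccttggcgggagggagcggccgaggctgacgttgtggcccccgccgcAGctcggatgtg
Rps27-209: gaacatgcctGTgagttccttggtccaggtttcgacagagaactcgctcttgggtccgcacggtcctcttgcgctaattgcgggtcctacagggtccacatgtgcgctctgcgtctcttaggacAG
Rps25-203: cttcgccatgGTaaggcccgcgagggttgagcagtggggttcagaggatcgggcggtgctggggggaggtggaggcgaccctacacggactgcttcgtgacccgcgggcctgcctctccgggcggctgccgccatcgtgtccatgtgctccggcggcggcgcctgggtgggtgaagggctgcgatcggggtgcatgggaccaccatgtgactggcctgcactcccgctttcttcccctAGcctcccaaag
They lie at chr5:115348708-115348838 (Cox6a1, minus strand, 131 bases, 80.2% G or C), chr3:90213494-90213609 (Rps27, minus strand, 116 bases, 57.8%) and chr9:44407758-44407987 (Rps25, plus strand, 230 bases, 69.6%). The third pair are whole introns of members whose share of the gene differed between the libraries in both kinds of table.
Rgs2-203: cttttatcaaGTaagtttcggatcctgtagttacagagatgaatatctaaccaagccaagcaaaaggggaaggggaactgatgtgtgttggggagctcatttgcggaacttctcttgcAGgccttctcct
Ogt-204: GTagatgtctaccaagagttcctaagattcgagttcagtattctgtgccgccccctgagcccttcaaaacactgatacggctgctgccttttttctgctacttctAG
The Rgs2 intron lies at chr1:144002842-144002951 on the minus strand (110 bases, 46.4% G or C) and the Ogt intron at chrX:101640111-101640217 on the plus strand (107 bases, 47.7%). The last set shows introns that a member holds only in part. Rps16-203 and Ctsb-202 begin inside an intron, and the last 40 intron bases before the exon are printed. Nr4a1-204 ends inside an intron, and the first 40 intron bases after the exon are printed.
Rps16-203: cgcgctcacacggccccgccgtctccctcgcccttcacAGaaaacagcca
Ctsb-202: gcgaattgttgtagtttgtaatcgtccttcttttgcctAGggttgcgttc
Nr4a1-204: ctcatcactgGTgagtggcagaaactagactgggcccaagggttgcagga
These junctions lie at chr7:28350952-28351001, chr14:63135568-63135617 and chr15:101273184-101273233, all on the plus strand.

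The libraries were of similar depth, with 34946406 and 37598352 estimated counts in the transcript tables and 35684781 and 38701795 expected counts in the gene tables, for replicates 1 and 2. In the gene tables, all 7 adrenal cortex markers and all 5 chromaffin markers checked were at 1 TPM or more in both libraries, and the 4 kidney markers were at 0.25 TPM or less. Skeletal muscle markers summed to 313 and 2.34 TPM in replicates 1 and 2, and liver markers to 33.8 and 2.28 TPM, so replicate 1 stood apart in these. All 5 adipocyte markers were at 1 TPM or more in both libraries, from 83.0 to 789.7 TPM in replicate 1, and summed to 1759.6 and 1731 TPM, above the 1479.6 and 1109.7 TPM of the chromaffin markers. The part of these other cell types in the results was not tested.

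Retained-intron entries passed the TPM threshold less often than the gene's other kinds of transcript. The share of entries that passed was 19.6% for protein_coding, 8.78% for nonsense_mediated_decay and 6.55% for processed_transcript, against 4.56% here. The members' TPM ran from 5.01 to 808 in replicate 1 (median 12.8) and from 5.01 to 815 in replicate 2 (median 12.9). The estimated counts behind a member ran from 16.1 to 8912 in replicate 1 (median 167) and from 14 to 8070 in replicate 2 (median 180). All members together came to 5.89 and 5.75 TPM per 100 TPM of protein-coding transcripts. In the other transcript tables the same entries came to 2.33 and 2.36 per 100.

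Most of the 12 highest members came from genes of the ribosome and the respiratory chain, with Tpt1-207 and Ctsb-202 from other genes. Tpt1-207, from the gene of a translationally controlled tumour protein, stood at 808 and 815 TPM in replicates 1 and 2. In the other transcript tables it stood at only 1.24 and 1.23 TPM. Tpt1-204 of the same gene was above it in both kinds of table, at 887 and 936 TPM with estimated counts and at 704 and 717 TPM in the others. Cox6a1-202, from a cytochrome c oxidase subunit gene, stood at 794 and 728 TPM. Rps27-209, from a gene of the small ribosomal subunit, stood at 750 and 689 TPM. These values were within 1.1-fold between the libraries, and ribosomal protein members Rps16-203, Rpl37a-204, Rpl23a-202, Rpl31-204, Rps25-203 and Rpl28-204 followed between 461 and 641 TPM. Ctsb-202, from the gene of the lysosomal protease cathepsin B, stood at 444 and 423 TPM, and Cox7b-203, from another cytochrome c oxidase subunit gene, at 432 and 483 TPM. Ribosomal protein genes have many near-identical pseudogene copies, so how reads were divided among them is uncertain.

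A member typically held about 20% of its gene's summed TPM. The median share was 20.3% in replicate 1 and 19.9% in replicate 2, with quartiles at 11.5% and 33.2% in replicate 1. On the mean of both libraries, 793 members held 10% or more, 96 held 50% or more and 15 held under 1%. For comparison, the transcripts of other kinds that passed the same threshold had medians of 50.9% (protein_coding), 25.9% (nonsense_mediated_decay) and 25.8% (processed_transcript). TPM divides by length, so a short member weighs more in this share than in reads. By estimated counts, the median share was 6.81% in replicate 1 and 6.57% in replicate 2.

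The other transcript tables, which came from a transcriptome alignment, give IsoPct, the percent of the gene's TPM in each transcript. All 997 members were matched there. Their median IsoPct was 6.74 in replicate 1 and 6.64 in replicate 2. It was 50 or more for 51 members, and 0 in both libraries for 29. The share and IsoPct were both 50 or more for 35 members, which is 36.5% of the 96 with that share and 68.6% of the 51 with that IsoPct. The share lay more than 20 percentage points above IsoPct for 226 members, more than 20 points below it for 22, and within 10 points for 487. Across members, Pearson's r between share and IsoPct was 0.54 in both replicates and Spearman's rho was 0.42 and 0.41. These are descriptions over 997 entries of the same 2 libraries, and entries of 1 gene are not independent. For protein-coding transcripts that passed the same threshold, r was 0.78 and 0.79.

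**Figure D1:**
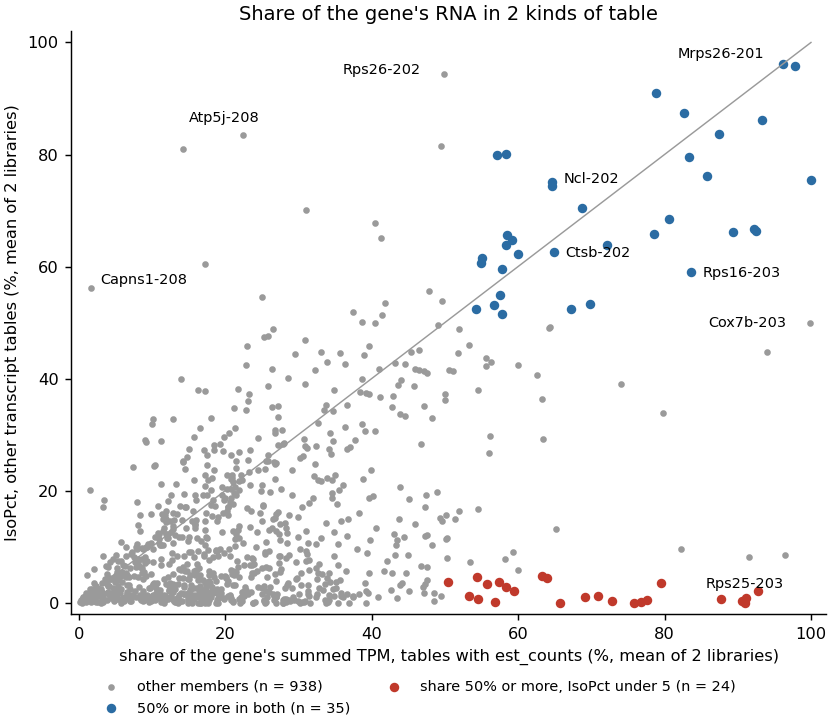
Each point is a retained-intron member (n = 997), with its share of the gene's summed TPM in the tables with estimated counts (x axis, percent, mean of 2 libraries) against IsoPct in the other transcript tables (y axis, percent, mean of 2 libraries), and the line marks equal values. The 35 blue members held 50% or more in both, and the 24 red members held 50% or more by share with an IsoPct under 5.

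Members that held most of their gene in both kinds of table included several of the mitochondrial ribosome. Mrps26-201, of the small mitochondrial ribosomal subunit, stood at 31.9 and 34.2 TPM, with shares of 96.4% and 95.8% and IsoPct of 96.45 and 95.89. The only other transcript of this gene above 1 TPM was the coding Mrps26-202, of 4278 bases, at 1.17 and 1.49 TPM. Mrpl57-202, of the large mitochondrial subunit, had shares of 97.8% and 97.9% and IsoPct of 95.4 and 96.27. Mrps24-201 had shares of 60.4% and 56.2% and IsoPct of 79.55 and 80.8, and Mrps25-201 had shares of 92.6% and 92.4% and IsoPct of 63.22 and 69.65. For BC003965-202 the share was 100% in both libraries at 9.04 and 9.10 TPM, and IsoPct was 71.33 and 79.72. Olfml3-202 had shares of 96.3% and 90.2% and IsoPct of 85.04 and 87.11.

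Ctsb-202 had shares of 64.95% and 64.9% and IsoPct of 62.16 and 63.12. It is 801 bases long and its coding partner Ctsb-201 is 4743 bases, so the 2 sets of tables gave it most of the gene's TPM while it held only 16.6% and 16.5% of the gene's estimated counts. Ncl-202, from the gene of the nucleolar protein nucleolin, holds 2 whole introns and stood at 89.6 and 88.6 TPM, with shares of 67.5% and 61.9% and IsoPct of 72.27 and 76.39. Prelid1-202, from a gene of mitochondrial lipid transfer, had shares of 79.0% and 78.7% and IsoPct of 91.34 and 90.64. C4b-203 and C4a-206, from the complement genes C4b and C4a, also held more than 50% in both, but these genes are near-identical copies and the division of reads between them is uncertain.

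The reverse case, a share of 50% or more with an IsoPct under 5, was found for 24 members, 8 of them from cytosolic ribosomal protein genes. Rps25-203 had shares of 90.0% and 91.1% and IsoPct of 0.24 and 0.36. It drew 4663 and 4980 estimated counts in the tables with estimated counts and 19.6 and 32.6 expected counts in the other tables. There the gene's TPM sat on Rps25-204, a coding transcript of 393 bases at 188 and 219 TPM, and on Rps25-205, at 184 and 162 TPM. In the tables with estimated counts Rps25-204 was listed at 0 TPM in both libraries. Rps27-209 had shares of 82.9% and 72.2% and IsoPct of 0.42 in both, while the coding Rps27-201, of 345 bases, was listed at 0 TPM in both libraries and stood at 569 and 581 TPM in the other tables. Cox6a1-202 had shares of 87.3% and 88.0% and IsoPct of 0.67 and 0.63, with 5912 and 5762 estimated counts against 54.4 and 50.95 expected counts. Cycs-201, from the cytochrome c gene, had shares of 91.4% and 91.6% and IsoPct of 9.66 and 6.71, just outside these 24. Lsm5-202, from the gene of an RNA-binding ring protein, had shares of 85.7% and 100% and IsoPct of 2.32 and 2.03. For Rps25-203, Rps27-209 and Cox6a1-202 the 2 kinds of table, in both libraries, placed the gene's reads on different transcripts.

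**Figure D2:**
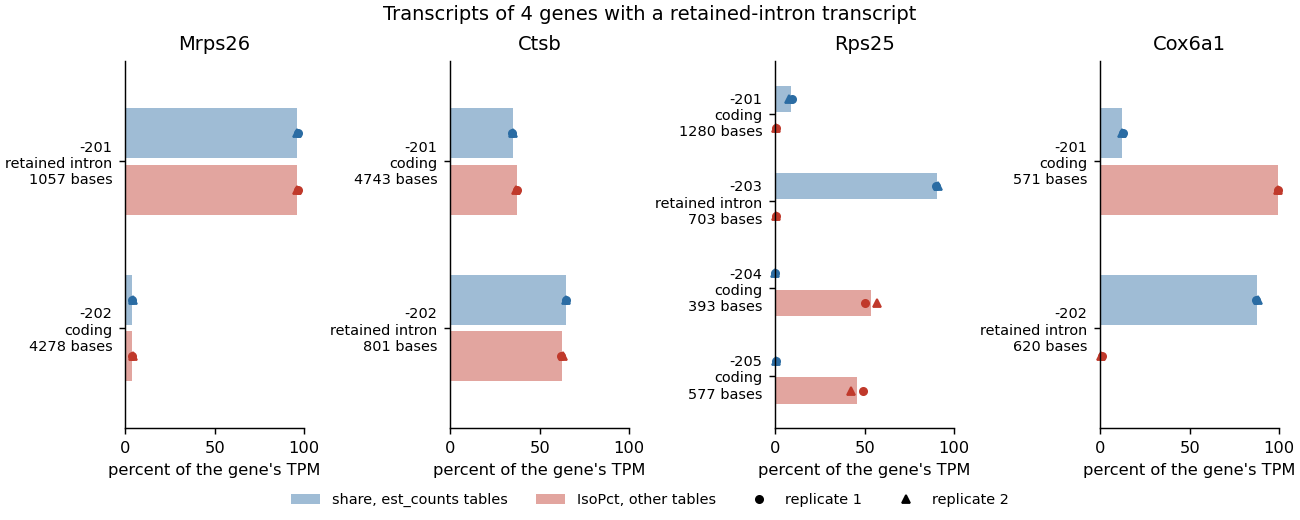
Transcripts with 1% or more of the gene in any library or table, for 4 genes, with bars for the mean of 2 libraries and a circle (replicate 1) or triangle (replicate 2) for each library, as percent of the gene's TPM. Mrps26-201 and Ctsb-202 held about the same part in both kinds of table, while Rps25-203 and Cox6a1-202 held 90.6% and 87.6% on the mean in the tables with estimated counts and under 1% in the others.

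The coding partner, taken as the protein-coding transcript of the gene with the highest TPM in the IsoPct tables, was short in the members that differed. Where there was such a partner, its median length was 556 bases over these 24 members, with 14 under 600 bases. It was 2994 bases over the 35 members that held 50% or more in both, with none under 600 bases. Over all members the median was 2316 bases and 71 (7.12%) were under 600 bases. The tables also differed in how they shorten a transcript to its effective length. For entries of 2000 bases or more, the effective length was 329 bases below the length in the tables with estimated counts and 99 bases below it in the other tables. Members of 500 bases or less had a median effective length of 145 bases in the first and 358 bases in the second, in replicate 1. The excess of share over IsoPct was larger in short members, with a median of 13.3 percentage points for the 133 of 500 bases or less, 14.1 points for the 171 of 501 to 600 bases and 0.74 points for the 128 of more than 2000 bases. With the estimated counts divided by the other tables' effective lengths, an alternative chosen after seeing the data, the median share was 17.0%. Under it, 19 of the 24 members still had 50% or more.

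The opposite difference, an IsoPct above the share, was widest for 5 members. Atp5j-208, from a gene of ATP synthase, had shares of 19.8% and 25.1% and IsoPct of 84.48 and 82.57. Rps23-202 had shares of 10.5% and 17.9% and IsoPct of 79.78 and 82.32, and Capns1-208, from a calpain small subunit gene, had shares of 1.81% and 1.68% and IsoPct of 50.63 and 61.8. The others were Rps26-202 (49.9% on the mean against 94.4) and Samm50-205 (17.2% on the mean against 60.5).

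The 837 carrying genes were mostly expressed at a high level. They are 8.27% of the 10119 genes with 5 summed TPM or more in both libraries, and 13.6% of the 6160 of those genes that have a retained_intron entry at all. Most carried 1 member (708 genes), 103 carried 2, 24 carried 3, and only Eif4a2 and Rbm39 carried 4 or more. Of the protein-coding genes at 5 TPM or more, 8.52% carried a member. In 5 equal groups of those genes by level, from the lowest to the highest, 0.206%, 1.14%, 4.28%, 12.6% and 24.4% carried a member. The threshold in TPM sets part of this order, since a gene at a low level cannot hold a member at 5 TPM unless the member's share is large. Of the carrying genes, 826 are annotated as protein coding and 11 as processed transcripts.

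Genes of the splicing lists carried members in a larger part of cases than the 8.27% of all genes, as a description with no test. These lists were chosen with earlier results of these data known. Of 21 genes for SR proteins, which bind exons and recruit the spliceosome, and their kinases, 10 (47.6%) carried a member, and so did 7 of 29 genes (24.1%) for hnRNP and FET proteins, which package nuclear RNA. Of 43 other splicing and RNA processing genes, 21 (48.8%) carried a member. Among these was Ogt, whose enzyme adds N-acetylglucosamine to proteins and is not part of the splicing machinery. The 60 members of these lists had a median share of 12% and a median IsoPct of 8.735, and share and IsoPct lay within 10 points for 50 of them (83.3%, against 48.8% of all members). Srsf2-203 had shares of 16.3% and 17.6% and IsoPct of 19.21 and 19.06. Srsf5-212 had shares of 16.1% and 15.0% and IsoPct of 17.04 and 15.61, and Srrm2-209 had shares of 15.3% and 19.1% and IsoPct of 13.8 and 15.24. Ccnl2-205, from the gene of cyclin L2, had the highest share of these lists, at 52.4% and 54.2%, and an IsoPct of 46.79 and 45.21. The 4 members of Rbm39, a splicing factor gene, summed to 31.1% and 29.9% of the gene, and to an IsoPct of 28.88 and 25.69. Among hnRNP genes the 2 kinds of table differed for Pcbp2-220, at 18.9% and 16.2% by share against an IsoPct of 0.58 and 0.21. Median gene levels were 51.4 TPM for SR proteins and 54.8 TPM for the other splicing genes, in the group by level where 12.6% of protein-coding genes carried a member. For hnRNP and FET proteins the median was 110 TPM, in the highest group. There 24.4% carried a member, so the 24.1% of this list was close to the rate for its level. A retained_intron entry exists for 19 of the 21 SR and kinase genes, 21 of the 29 hnRNP and FET genes and 40 of the 43 others. Over all genes at 5 summed TPM or more it exists for 6160 of 10119.

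Cytosolic ribosomal protein genes, chosen by symbol, carried members in 38 of 82 cases (46.3%), at a median gene level of 552 TPM, also in the highest group by level with its 24.4%. Their 46 members had a median share of 20.1% but a median IsoPct of 1.04, and IsoPct was under 1 for 22 of them. Rps16-203 held most of the gene in both, with shares of 83.5% and 83.9% and IsoPct of 59.63 and 58.49. Rpl37a-204, at 543 and 532 TPM, had shares of 69.4% and 68.9% and IsoPct of 1.02 and 1. Mitochondrial ribosomal protein genes carried members at close to the rate of all genes, in 7 of 78 cases (8.97%), but the 8 members had the highest medians of the lists, 60.9% by share and 47.9 by IsoPct. The median level of these genes was 48.3 TPM, in the group by level where 12.6% of protein-coding genes carried a member.

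Nuclear genes of the respiratory chain and its assembly carried members in 20 of 91 cases (22.0%), with medians of 27.0% by share and 1.04 by IsoPct over 25 members. Their median gene level was 234 TPM, in the highest group by level, where 24.4% of protein-coding genes carried a member. Ndufb4-202, of complex I, had shares of 92.4% and 92.1% and IsoPct of 66.27 and 66.96. Cox7b-203 had shares of 99.9% and 99.7% and IsoPct of 46.95 and 52.9. Atp5k-203, of ATP synthase, had shares of 97.1% and 85.0% and IsoPct of 0.8 and 1.03, and Atp5l-202 had shares of 56.6% and 57.1% and IsoPct of 0.08 and 0.1. Translation factor genes carried members in 9 of 64 cases (14.1%). Their median gene level was 66.6 TPM, also in the highest group by level with its 24.4%. Eif4a2, which encodes an RNA helicase of translation initiation, had 7 members that summed to 52.5% and 55.7% of the gene but to an IsoPct of 12.88 and 14.2, and its highest was Eif4a2-220, at 151 and 162 TPM with IsoPct of 0.51 and 0.

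In genes of the gland's own products, the members held little of the gene. The rule lets an entry pass at a small share where the gene's level is high. Members of other highly expressed genes also held little, such as Actb-205 (0.53% on the mean), Gapdh-205 (0.28%) and Eef1a1-203 (0.22%). Of 21 genes for corticosteroid synthesis and its control, 3 (14.3%, against 8.27% of all genes) carried a member, and 6 of the 21 have a retained_intron entry. Their median gene level was 456 TPM, in the highest of the 5 groups by level, where 24.4% of protein-coding genes carried a member. Cyp21a1-203, from the steroid 21-hydroxylase gene, stood at 33.6 and 28.4 TPM but held 0.70% and 0.59% of the gene, with IsoPct of 1.0 and 0.94. This gene has a near-identical pseudogene, so its reads are uncertain. Cyp11a1-204, from the gene of the side-chain cleavage enzyme that starts steroid synthesis, stood at 28.4 and 27.1 TPM and held 0.74% and 0.77%. Nr5a1-203, from the gene of steroidogenic factor 1, stood at 13.4 and 20.5 TPM and held 3.74% and 5.88%, with IsoPct of 3.35 and 5.89. Of 18 chromaffin genes only Chga, the chromogranin A gene, carried a member, Chga-203, at 7.77 and 6.25 TPM and 1.07% and 1.06% of the gene. Only 7 of the 18 have a retained_intron entry. Their median gene level was 19.3 TPM, in the group by level where 4.28% of protein-coding genes carried a member.

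Cholesterol synthesis genes carried 4 members in 24 genes (16.7%). Their median gene level was 52.5 TPM, in the group by level where 12.6% of protein-coding genes carried a member. Fdft1-203, of squalene synthase, had shares of 26.9% and 33.0% and IsoPct of 12.07 and 18.49. Lss-203, of lanosterol synthase, had shares of 48.6% and 45.9% and IsoPct of 3.76 and 3.02, and Dhcr7-205 had shares of 13.7% and 8.11% and IsoPct of 1.03 and 0.69. Ebp-202 had shares of 11.5% and 10.9% and IsoPct of 20.19 and 22.09. Transfer RNA synthetase genes carried members in 4 of 35 cases (11.4%), heat shock and chaperone genes in 4 of 14 (28.6%), clock genes in 3 of 12 (25%), immediate-early genes in 2 of 15 (13.3%), and small nucleolar RNA host and other long noncoding genes in 3 of 18 (16.7%). These counts of 2 to 4 genes are too small to rank against each other. By median gene level, heat shock and chaperone genes (354 TPM) lie in the group where 24.4% of protein-coding genes carried a member. Synthetase (40.1 TPM), clock (35.4 TPM) and the noncoding genes (35.3 TPM) lie in the group with 12.6%, and immediate-early genes (26.8 TPM) in that with 4.28%.

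**Figure D3:**
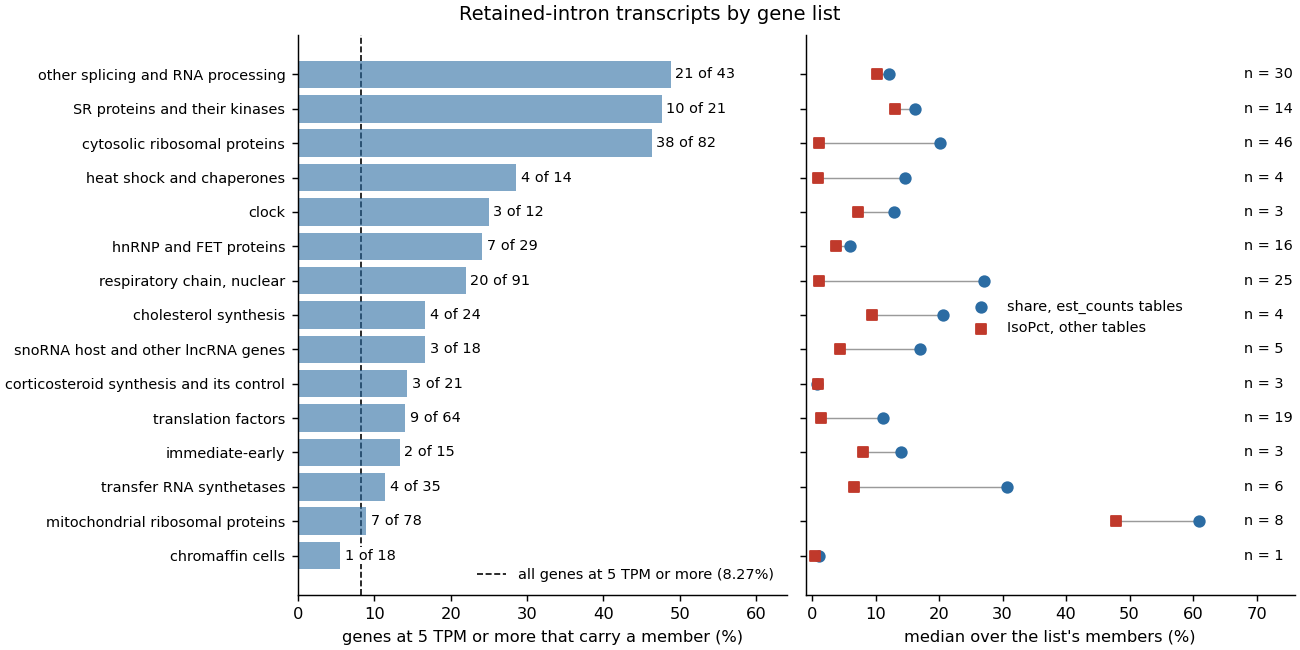
Left, the percent of each list's genes with 5 summed TPM or more that carry a member, with counts beside the bars and a dashed line at the 8.27% of all such genes at any level; right, the median share (circles) and median IsoPct (squares) of the list's members, in percent. Share and IsoPct lie close together for the splicing lists and far apart for cytosolic ribosomal and respiratory chain genes.

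As a description, members reached into introns at other places than the remaining retained_intron entries. Against the gene's coding transcripts, 284 members (28.5%) held at least 1 whole intron, close to the 30.5% of the other 20851 entries. A 5′ end inside an intron, as in Rps16-203 and Ctsb-202, was found in 598 of the members (59.98%) and 40.2% of the others. A 3′ end inside an intron, as in Nr4a1-204, was found in 229 members (23.0%) and 55.2% of the others. Counting only ends with 20 or more bases in the intron gave 56.6% against 37.0% for 5′ ends and 19.8% against 53.8% for 3′ ends. In 25 members none of these was found, and 140 members (14.0%) had no base that another transcript of the gene lacks. The median length was 725 bases for members and 898 bases for the others.

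The introns that members held whole were short. There were 430, with a median of 187 bases, and 420 of them (97.7%) had the GT and AG ends shown in capitals above. Among introns of the coding transcripts of carrying genes, the 391 held whole by a member had a median of 185 bases, and the 11211 not held had a median of 1041 bases. Introns under 100 bases made up 29.4% of the first and 7.30% of the second. An intron held whole must fit inside an exon of the member, and the upper quartile of member length was 1025 bases. The length of the entries therefore sets part of this difference. Whole introns of the other retained_intron entries were also short, with a median of 248 bases, 19.6% under 100 bases and 97.6% with GT and AG ends. A gene for a small RNA lay inside the exons of 28 members (2.81%), on the same strand, and of 0.844% of the other entries. These included Rps20-202 (301 and 316 TPM), Snhg1-213 (77.1 and 113 TPM, IsoPct 0 in both) with Snord22 inside, and Gas5-218 (9.19 and 6.61 TPM). Reads of the small RNA and of the member cannot be told apart there.

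Levels agreed between the libraries for most members, among entries that the rule had already required to reach 5 TPM in both. The 489 entries that reached it in only 1 library are not in these values, so the rule itself favours agreement. Over the 997 members, the log2 TPM of the libraries had a Pearson's r of 0.94 and a rho by Spearman of 0.88, as a description. The SD of the log2 ratio of replicate 2 over replicate 1, with 0.1 added to TPM, was 0.47, against 0.31 for protein-coding, 0.39 for nonsense_mediated_decay and 0.43 for processed_transcript entries that passed the threshold. A difference of 2-fold or more was seen in 42 members, with replicate 2 the higher in 21 and the lower in 21. This is 4.21% of members, against 1.84% of the 14598 transcripts of all kinds at 5 TPM or more in both (0.973% higher and 0.863% lower). Among processed_transcript entries, which were close to the members in length and level, 4.23% were 2-fold or more apart, and among nonsense_mediated_decay entries 2.22%. The share moved by a median of 2.40 percentage points between the libraries, by 5 points or less for 755 members and by more than 10 points for 67. With only 2 libraries of 1 group, no p-value is given for any member. The 5 members with the lowest ratio were Gapdh-206, Ftl1-206, Oxr1-211, Rgs2-203 and Mgst2-209, and those with the highest included Aldoa-208, Alas1-203, Qars-208 and Btf3-203. Their log2 ratios ran from -2.30 to -1.98 and from 1.88 to 2.44.

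**Figure D4:**
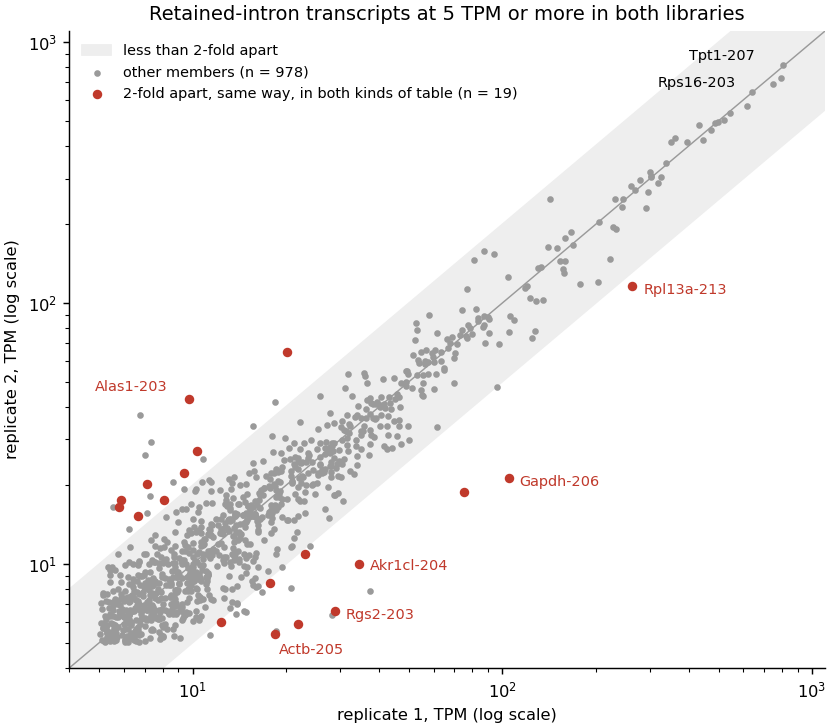
TPM of each member in replicate 1 (x axis, log scale) and replicate 2 (y axis, log scale) in the tables with estimated counts, with the line at equal values and the band at less than 2-fold. The 19 red members were 2-fold or more apart the same way in both kinds of table, and the others lie mostly inside the band.

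For 19 members, 9 higher and 10 lower in replicate 2, both kinds of table gave a difference of 2-fold or more the same way (0.589% of all transcripts tested did). Rgs2-203, from the gene of a regulator of G protein signalling, stood at 28.8 and 6.58 TPM in replicates 1 and 2, and at 16.1 and 3.65 TPM in the other tables. The gene's summed TPM went the other way, at 147 and 243. The coding Rgs2-204 was lower in replicate 2 like the member, at 28.4 and 8.87 TPM. The nonsense_mediated_decay entry Rgs2-201 (47.6 and 129 TPM) and the coding Rgs2-202 (41.8 and 98.8 TPM) were higher. Akr1cl-204, from an aldo-keto reductase gene, stood at 34.3 and 9.97 TPM with the gene's sum at 868 and 867. Actb-205, from the beta-actin gene, stood at 18.4 and 5.38 TPM with the gene's sum at 2202 and 2339. So all 3 members were lower in replicate 2, while the sum of Rgs2 was higher there and the sums of Akr1cl and Actb were within 1.1-fold. Actb and Gapdh have many pseudogene copies, so their values are uncertain. In whole tissue, fewer cells of a type and less RNA per cell cannot be told apart. All 3 members of Alas1, which encodes the first enzyme of haem synthesis, were higher in replicate 2, with Alas1-203 at 9.72 and 43.0 TPM, while the gene's sum was 425 and 690.

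Share and IsoPct both moved by 10 points or more the same way for 13 of the 997 members, 9 of them lower in replicate 2. Both counts are smaller parts than among the 14598 transcripts of all kinds, where 323 (2.21%) did so and 158 (1.08%) were lower. The members named next are therefore examples, and such moves were not more common in members. Rsrp1-204, from an arginine and serine rich protein gene, had shares of 42.4% and 25.3% and IsoPct of 52.34 and 33.65, while the coding transcripts of the gene stood at 39.8 and 83.9 TPM. Nr4a1-204, from an immediate-early gene for a nuclear receptor, had shares of 22.8% and 5.26% and IsoPct of 18.92 and 4.51. Its own level was 15.8 and 22.7 TPM, and the coding transcripts stood at 53.2 and 409 TPM. Ppp1r10-204, from the gene of a nuclear regulator of protein phosphatase 1, had shares of 54.2% and 34.8% and IsoPct of 44.52 and 22.2, at 23.6 and 22.4 TPM. Wdr18-204 moved the other way, with shares of 38.1% and 62.0% and IsoPct of 28.18 and 46.48. So did Dctn6-210, Dnajc9-203 and Rgs3-207, which were also higher in replicate 2 by share and by IsoPct. In Nr4a1 and Ppp1r10 the member's own TPM differed by less than 2-fold and the gene's other transcripts differed more.

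The splicing lists have 38 genes that carry a member, Ogt included. Summed share and summed IsoPct were both lower in replicate 2 in 21 (55.3%) of them and both higher in 8. Over all 837 carrying genes these were 34.6% and 29.5%. The median difference of the summed share was -1.60 points in the splicing genes and -0.27 points over all carrying genes. By summed IsoPct it was smaller, -0.455 points in the splicing genes and 0 over all. Clk1-204, from the gene of a kinase of SR proteins, had shares of 19.7% and 12.5% and IsoPct of 14.08 and 8.87. Its own level was 8.91 and 9.32 TPM, while the gene's coding transcripts stood at 12 and 39.0 TPM. Another retained_intron entry, Clk1-213, outside the rule at 4.27 TPM in replicate 1 and at 9.40 TPM in replicate 2, went the other way. It had shares of 9.42% and 12.6% and IsoPct of 7.51 and 9.59. Clk4 had summed shares of 41.9% and 32.5% and IsoPct of 31.23 and 23.88, and Srsf11 had 42.4% and 32.6% with IsoPct of 40.84 and 30.37. Of the Clk4 members, Clk4-207 stood at 8.62 and 8.88 TPM and Clk4-209 at 10.7 and 9.48 TPM. A lower share was therefore not always a lower level of the member. Ogt-204, from the gene of the enzyme that adds N-acetylglucosamine to proteins, had shares of 33.5% and 27.7% and IsoPct of 28.83 and 23.57. Rbm3, a gene of a cold-induced RNA-binding protein, had shares of 16.5% and 7.20% and IsoPct of 19.99 and 8.80, with coding transcripts at 27.4 and 63.8 TPM. Others did not move this way: Srsf2 and Sf3b1 differed by less than 1.5 points by share and by less than 1 point by IsoPct.

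**Figure D5:**
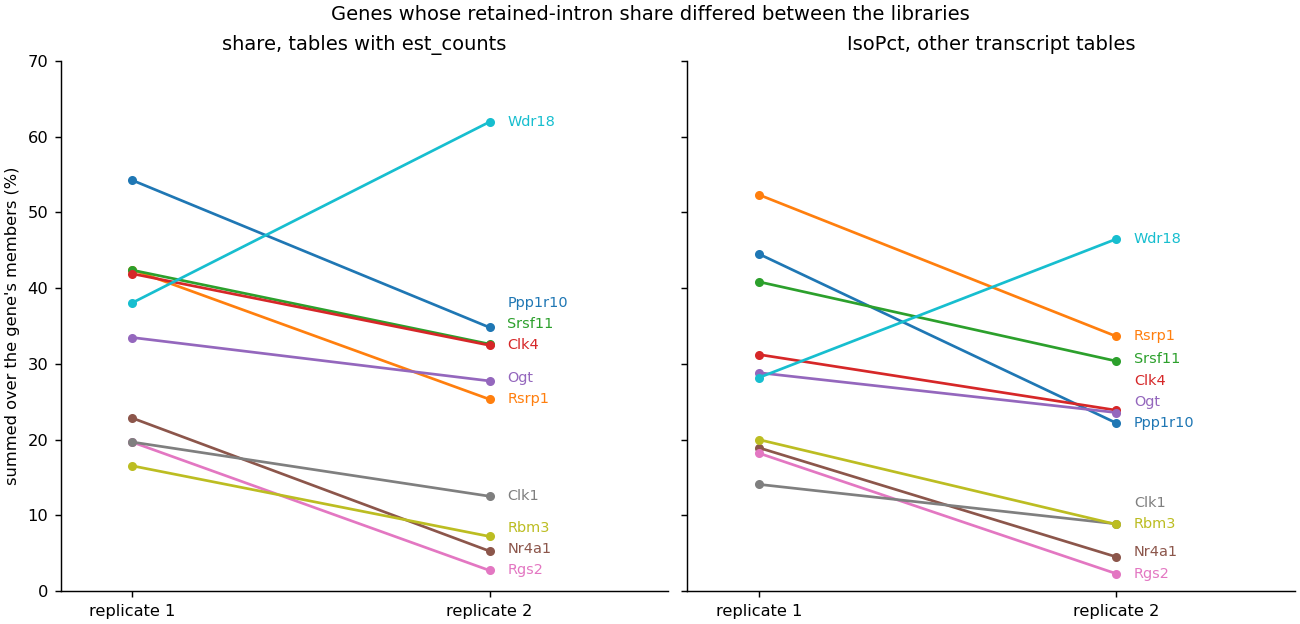
Share (left) and IsoPct (right), summed over the members of a gene, in replicates 1 and 2, in percent, for 10 genes chosen because they differed between the libraries. The values were lower in replicate 2 for 9 genes and higher for Wdr18, in both kinds of table. This balance reflects the choice of genes. Over all 837 carrying genes, both values were lower in replicate 2 in 34.6% and both higher in 29.5%.

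The threshold cut through a continuous range of levels. The closest inside were Zswim8-213 (5.01 and 5.41 TPM), Chchd5-202 (5.197 and 5.01 TPM) and Irf3-207 (6.72 and 5.02 TPM). The closest outside were Rpl12-207 (4.99 and 5.32 TPM), Cdc123-208 (4.99 and 8.78 TPM) and Zc3h14-209 (4.99995 and 8.35 TPM). The share of Cdc123-208 was 9.21% and 15.1% with an IsoPct of 47.32 and 46.51, so an entry with a larger part of its gene by IsoPct than most members fell outside the rule.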

How the data were processed

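Total RNA of adrenal glands was measured in 2 libraries of 1 group, with 3 kinds of table for each. Per the text beside the deposited files, all were made on mm10 with GENCODE M21. The tables with estimated counts were derived by the authors from the reads, and per the file headers hold an estimated count, TPM, length and effective length for each transcript, under the column names kallisto writes. The other transcript tables and the gene tables were derived by the authors from a transcriptome alignment, and per the file headers hold an expected count and TPM, under the column names RSEM writes. The deposited IsoPct is a percent of the gene's TPM. The sources used here name no tool version, filter or strand setting.

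Shares are a member's TPM as percent of the gene's summed TPM in the tables with estimated counts, and members were matched to IsoPct by transcript identifier. Levels are TPM on each table's own scale. Introns came from the GENCODE M21 annotation, as introns of the gene's coding transcripts, and sequences from its transcripts. Python 3.11.15, numpy 2.4.6, pandas 2.3.3 and matplotlib 3.10.9 were used, and the scripts were tested on simulated data. There is 1 group of 2, so values are given per library and no test was made. The members and gene lists were chosen with earlier results of these data known. Members were named by level (12 highest), share (12 highest), list (4 highest, or all for corticosteroid synthesis), ratio between libraries (5 each way), distance from IsoPct (5 each way), genes with 4 or more members, and the threshold (3 each side). Some members that this rule names are not reported here. Other members named, including those that differed between the libraries in both kinds of table, were chosen after their values were seen. Alternatives varied the threshold, the table, the pseudocount and the libraries.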

Additional observations from a re-analysis of the deposited data

How the results depend on the processing

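With 997 members at the main threshold, a TPM of 1 gave 4295, a TPM of 10 gave 538, and the TPM of the other transcript tables gave 443. Protein-coding transcripts summed to 582580 and 586244 TPM in the tables with estimated counts and to 332085 and 329852 TPM in the others. A threshold of 5 TPM is therefore stricter in the other tables, and the 443 reflect this scale as well. Leaving out either library gave 1232 to 1251 members. A minimum of 20 estimated counts kept 992. The median share of 20.3% was 6.71% by estimated counts, 6.805 by IsoPct, 27.2% against protein-coding transcripts only, 7.60% at a TPM of 1, 26.0% at a TPM of 10 and 17.0% with the estimated counts over the other tables' effective lengths, the last chosen after seeing the data. Leaving out either library gave 19.9% to 20.3%. Members at 50% or more, 96 by share, numbered 51 by IsoPct, 64 by estimated counts and 79 with the other effective lengths, and 101 to 103 with either library left out. The 42 members 2-fold apart became 165 by the other tables' TPM and 26 among the 686 with 200 or more summed estimated counts, where they were 3.79%. They were 35 with 1 added to TPM and 41 by scaled estimated counts. Of the 165, only 5 had 5 TPM or more in both libraries of those tables. The SD of the log2 ratio, 0.47, was 0.44 with 1 added to TPM and 0.96 by the other tables' TPM. No paired analysis was possible because there is 1 group. The cause of these differences between tables was not tested. Precision is limited by 2 libraries and, for the lowest members, by about 14 to 16 estimated counts.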

Other observations

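The label retained_intron also covers entries outside protein-coding genes. The 11 genes without a coding transcript carried 14 members. Snhg1-213, from a small nucleolar RNA host gene, had shares of 73.8% and 77.9% and IsoPct of 0 in both libraries, and Snhg5-205 had shares of 21.3% and 22.1% and IsoPct of 7.7 and 5. Gas5-220 had shares of 17.8% and 16.1% and IsoPct of 1.3 and 0.

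Among the clock genes, Dbp-205 had shares of 10.5% and 4.77% and IsoPct of 10.04 and 4.49, while Tef-207 had shares of 16.9% and 18.8% and IsoPct of 6.17 and 5.25. Fosl2-203, from an immediate-early gene, had shares of 24.0% and 23.3% and IsoPct of 7.56 and 8.46. Among the chaperones, Hspa5-203 had shares of 22.8% and 33.7% and IsoPct of 0.55 and 0.68, and Hsph1-208 had shares of 25.5% and 30.4% and IsoPct of 26.7 and 30.13. Tars-204, from a transfer RNA synthetase gene, had shares of 34.4% and 36.0% and IsoPct of 18.62 and 16.57, and Lars2-205 had shares of 34.3% and 33.1% and IsoPct of 0 in both libraries.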
